A study of Mus musculus with 16 samples.

Results

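Mcm2, Cdkn2d, Dnajc9 and Nsmce2 are genes of DNA replication, chromatin and the cell cycle that the study's authors listed in their deposited tables of infarction against sham operation. The 4 genes were selected on the ENDO arrays, by the authors' fold of at least 2 with p under 0.05 after infarction. They are 4 of the 25 probe sets with 1 symbol among the 38 that the deposited ENDO table lists as higher, and 0 of the 196 probe sets of the deposited TCRM table. The value table holds 41345 probe sets, and each gene has 1 of them (17468798 for Mcm2, 17524698 for Cdkn2d, 17303757 for Dnajc9 and 17311821 for Nsmce2). All 4 were tested after the filter on low signal, and 0 of them shared its values with another probe set. The values are log2 signals of Affymetrix whole transcript arrays, so a difference of 1 is a doubling.

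The arrays come from CD4+ T cells of the mediastinal lymph nodes, sorted on day 7 after the operation as positive for CD4 and the T cell receptor beta chain. TCRM cells carry the Thy1.1 marker and a transgenic receptor for cardiac myosin, came from naive TCR-M donors and were given to wild-type male BALB/c mice (Thy1.2, 8 to 12 weeks old) on the day before surgery. ENDO cells are CD4+ T cells that belonged to the recipient mice themselves, so every animal, sham included, carried transferred cells and received buprenorphine. Infarction (ligation of a coronary artery) and sham operation (opening of the chest alone) gave 5 TCRM infarction, 3 TCRM sham, 5 ENDO infarction and 3 ENDO sham arrays. A sort on surface markers takes resting and dividing cells alike, and with bulk RNA more cells that carry a transcript and more transcript per cell cannot be told apart.

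A T cell that meets its antigen leaves quiescence, copies its genome and divides several times, and the genes described here act at different points of that programme. Mcm2 is a subunit of the MCM complex, the ring-shaped helicase that is loaded on replication origins and unwinds DNA at the fork, and it also carries histones. Cdkn2d encodes p19INK4d, an inhibitor of the cyclin-dependent kinases Cdk4 and Cdk6, which otherwise drive cells towards DNA synthesis. Dnajc9 is a J-domain partner of Hsp70 chaperones that has been described in human cells as a chaperone of histones. Nsmce2, called Mms21 in yeast, is the SUMO ligase of the SMC5/6 complex, which protects chromosomes during replication and recombination repair.

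The start-site windows of Mcm2, Cdkn2d and Dnajc9, but not of Nsmce2, are shown as regulatory sequence of genes whose ENDO means were higher after infarction. They are the RefSeq windows of build GRCm38.p6, from 250 bases before to 50 bases after the start, all on the minus strand and printed in the gene's direction. The Cdkn2d window is placed around a start 212 bases downstream of the RefSeq gene's 5′ end, while the starts of Mcm2 and Dnajc9 are the gene ends. Capitals mark the letters GGGCGG (Sp), the CCAAT box, TTTGAA (CHR, an element of many cell cycle genes) and the E2F spelling TTTCCCGC, each searched on both strands.
Mcm2, chr6:88898731-88899030: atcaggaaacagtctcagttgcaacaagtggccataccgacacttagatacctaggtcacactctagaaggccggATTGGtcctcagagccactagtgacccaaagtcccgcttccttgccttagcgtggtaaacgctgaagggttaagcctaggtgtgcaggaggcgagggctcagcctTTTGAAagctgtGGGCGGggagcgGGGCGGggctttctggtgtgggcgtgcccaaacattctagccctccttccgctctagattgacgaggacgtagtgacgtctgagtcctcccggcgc
Cdkn2d, chr9:21291160-21291459: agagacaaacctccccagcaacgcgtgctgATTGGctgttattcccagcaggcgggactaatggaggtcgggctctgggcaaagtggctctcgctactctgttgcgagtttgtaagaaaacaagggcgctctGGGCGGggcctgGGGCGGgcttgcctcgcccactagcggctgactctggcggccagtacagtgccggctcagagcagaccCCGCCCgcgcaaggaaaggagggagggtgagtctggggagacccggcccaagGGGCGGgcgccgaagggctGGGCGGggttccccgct
Dnajc9, chr14:20388861-20389160: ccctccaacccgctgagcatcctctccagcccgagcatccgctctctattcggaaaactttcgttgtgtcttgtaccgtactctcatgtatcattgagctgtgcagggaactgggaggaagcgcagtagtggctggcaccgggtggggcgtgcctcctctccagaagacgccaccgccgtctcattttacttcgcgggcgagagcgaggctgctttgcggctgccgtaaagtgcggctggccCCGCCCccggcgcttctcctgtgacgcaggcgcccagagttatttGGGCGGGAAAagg

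The E2F motif in the letters TTTCGCGC or TTTGGCGC matched in 0 of these 3 windows, and in 0.813% of the 32851 windows of all genes. With TTTCCCGC and TTTGCCGC added, a choice made after these sequences were seen, Dnajc9 had 1 match, which starts 40 bases after the start and overlaps an Sp match, against 2.26% of all windows. The Sp letters occurred 2 times in Mcm2, 5 times in Cdkn2d and 2 times in Dnajc9, and in 35.7% of all windows. Mcm2 and Cdkn2d had 1 CCAAT box each, on the other strand (37.4% of all windows), and Mcm2 had 1 CHR match, 70 bases before the start (17.9%). GC content was 57.3% for Mcm2, 66.3% for Cdkn2d and 61.7% for Dnajc9, against a median of 52.7%. A match describes the letters of the window and does not show that a factor binds there.

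**Figure D1:**
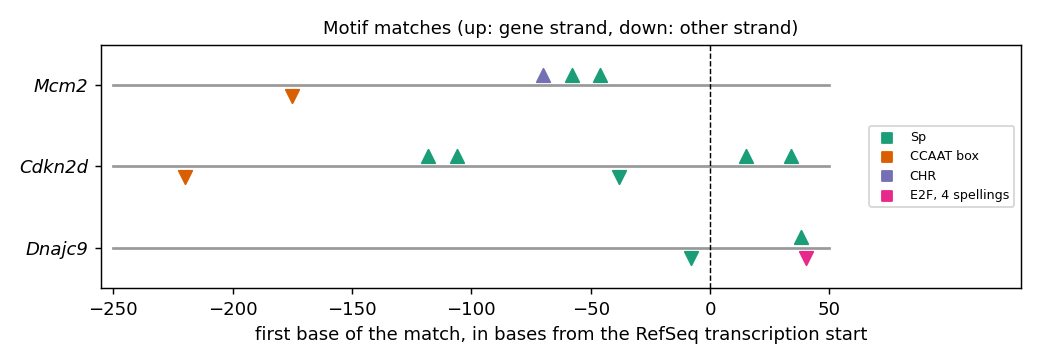
Position of each motif match in the start-site windows of Mcm2, Cdkn2d and Dnajc9, in bases from the RefSeq transcription start (dashed line), with triangles up for the gene's strand and down for the other strand. The 5 Sp matches of Cdkn2d lie on both sides of this start, which is 212 bases downstream of the RefSeq gene's 5′ end, and the 1 E2F spelling is in Dnajc9, 40 bases after it.

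The populations were treated as normalized separately. Median log2 signal was 5.37 to 5.43 on the TCRM arrays and 5.61 to 5.79 on the ENDO arrays, so levels are set side by side and not tested between populations. The arrays titled infarction 5 are called sham in their source names. Averages over the groups of the titles gave the authors' deposited averages in 274 of 274 ENDO probe sets, within 0.01, so the titles were followed. ENDO infarction array 5 also stood apart from the other ENDO arrays, with a mean correlation of 0.824 against 0.890 to 0.931 for the rest. ENDO differences below are therefore given with and without it, and without TCRM infarction array 5 the TCRM differences were 0.26 for Mcm2, 0.11 for Cdkn2d, 0.18 for Dnajc9 and 0.38 for Nsmce2.

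Mcm2, the helicase subunit, was higher on most ENDO infarction arrays than on the sham arrays, and differed little in TCRM cells. Its log2 signal was 7.39, 7.48, 7.30, 7.34 and 6.76 on ENDO infarction arrays 1 to 5, against 6.28, 6.85 and 6.32 on ENDO sham arrays 1 to 3. Infarction arrays 1 to 4 lay above every sham array, but array 5 lay below sham array 2, so the groups overlap. The means were 7.25 ± 0.28 after infarction and 6.48 ± 0.32 after sham operation (SD, n = 5 and 3), a difference of 0.77 ± 0.22 (SE from the group SDs) with array 5 and 0.89 without it. On TCRM arrays Mcm2 had 9.16, 8.29, 8.38, 8.79 and 8.11 after infarction, against 8.81, 8.45 and 7.93 after sham operation. These ranges overlap, with sham array 1 above all infarction arrays but 1, and the means were 8.55 ± 0.42 and 8.39 ± 0.44. Within its own population the Mcm2 mean exceeded that of 91.1% of probe sets in TCRM infarction, 90.6% in TCRM sham, 81.0% in ENDO infarction and 68.5% in ENDO sham arrays. The order of these ranks was not tested, and the TCRM infarction and TCRM sham means differ by less than the SD of either group.

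Cdkn2d, the kinase inhibitor, had the largest ENDO difference of the 4 genes and the widest scatter after infarction. On ENDO arrays it had 8.63, 8.18, 8.14, 7.70 and 7.16 after infarction, against 6.36, 6.64 and 6.42 after sham operation. The groups did not overlap, with 0.52 between the closest values, although the infarction arrays themselves spanned from 7.16 (array 5) to 8.63 (array 1). The means were 7.96 ± 0.56 after infarction and 6.47 ± 0.15 after sham operation (SD), a difference of 1.49 ± 0.26 (SE), or 2.81-fold, and of 1.69 without infarction array 5. In TCRM cells Cdkn2d was nearly level, with 7.88, 7.75, 7.67, 7.65 and 7.73 after infarction, against 7.51, 7.92 and 7.45 after sham operation. Sham array 2 was the highest of the 8 TCRM arrays, and the means were 7.74 ± 0.09 and 7.63 ± 0.26. The Cdkn2d mean exceeded that of 84.3% of probe sets in both TCRM groups, of 89.2% in ENDO infarction and of 68.3% in ENDO sham arrays.

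Dnajc9, the histone co-chaperone, separated the ENDO groups as well. Its signal was 8.57, 8.63, 8.77, 8.43 and 8.13 on ENDO infarction arrays, against 7.84, 7.52 and 7.40 on ENDO sham arrays. The lowest infarction value, again array 5, was 0.29 above the highest sham value. Means of 8.51 ± 0.24 after infarction and 7.58 ± 0.23 after sham operation gave a difference of 0.92 ± 0.17 (SE), and of 1.02 without infarction array 5. On TCRM arrays the signal was 8.64, 8.27, 8.29, 8.27 and 8.27 after infarction, against 8.21, 8.25 and 8.10 after sham operation. Infarction arrays 2 to 5 lay close together, array 1 stood above them, and the lowest infarction value exceeded the highest sham value by 0.01. The TCRM means were 8.35 ± 0.16 and 8.19 ± 0.08.

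Nsmce2, the SUMO ligase, had the smallest SD of the 4 over the ENDO infarction arrays and the largest over the ENDO sham arrays, in the deposited values. After quantile normalization within populations, Dnajc9 had a smaller SD than Nsmce2 over the ENDO infarction arrays (0.11 against 0.18). It had 8.77, 8.68, 8.81, 8.43 and 8.77 after infarction, against 7.63, 8.25 and 7.74 after sham operation, with no overlap and 0.18 between the closest values. Array 5, where the other 3 genes had their lowest ENDO infarction signal, was not low for Nsmce2, and array 4 was the lowest. The means were 8.69 ± 0.15 after infarction and 7.87 ± 0.33 after sham operation, and the difference was 0.82 ± 0.20 (SE) with array 5 and 0.80 without it. Sham array 2 decided part of its size, since the difference was 1.01 without that array. On TCRM arrays Nsmce2 had 8.75, 8.61, 8.35, 8.41 and 8.34 after infarction, against 8.37, 8.33 and 7.74 after sham operation. Only sham array 3 was clearly lower than the rest, and the means were 8.49 ± 0.18 and 8.15 ± 0.35.

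**Figure D2:**
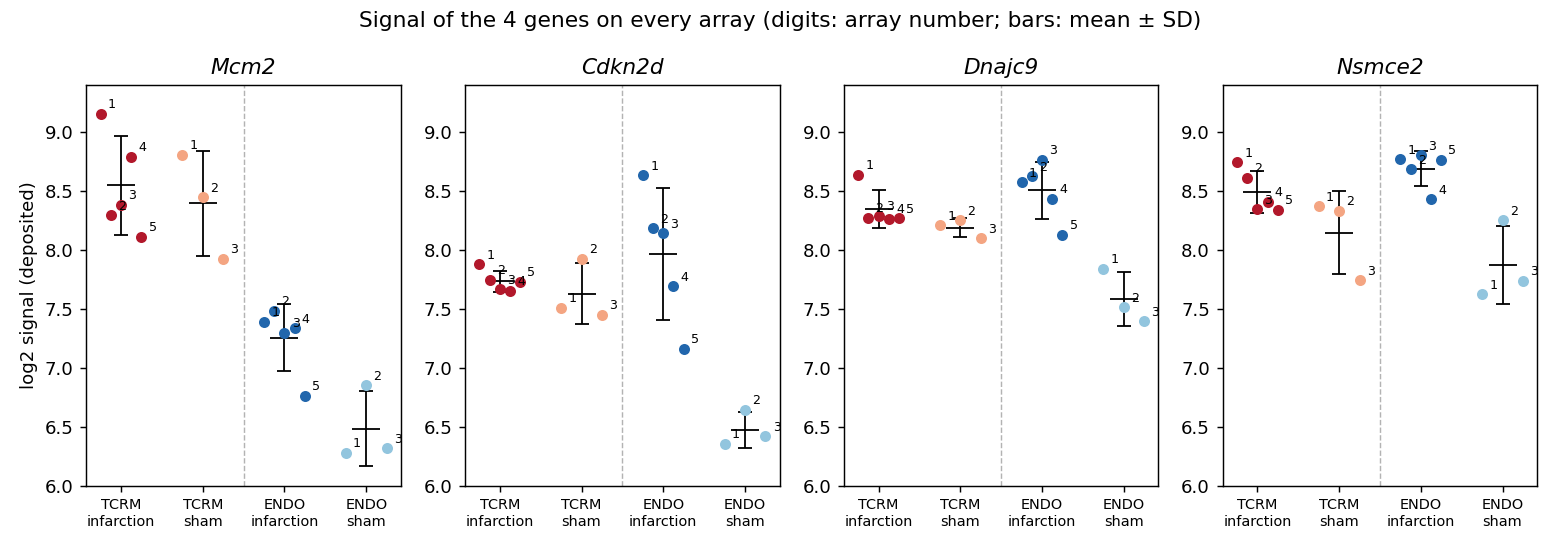
Deposited log2 signal (vertical axis) of each gene on the 16 arrays, by population and operation, with the array number beside each point and black bars for the group mean ± SD. Cdkn2d, Dnajc9 and Nsmce2 have all 5 ENDO infarction points above the 3 ENDO sham points, and for Mcm2 infarction array 5 (6.76) lies below sham array 2 (6.85).

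In ENDO cells the infarction arrays lay wholly above the sham arrays for 3 of the 4 genes, and for 3.02% of the 28941 tested probe sets. As the genes were selected on this contrast, nothing is read from that count. The TCRM arrays did not take part in the selection, and there the genes could be tested. The residual variance of each probe set was estimated over TCRM and ENDO arrays together, so ENDO scatter enters the SE below. In a limma fit over all tested probe sets 0 of the 4 passed an adjusted p of 0.05 in TCRM cells, where 0.757% of all probe sets passed. The differences after infarction were 0.34 ± 0.17 for Nsmce2, 0.16 ± 0.15 for Dnajc9, 0.15 ± 0.25 for Mcm2 and 0.11 ± 0.24 for Cdkn2d (log2, limma's SE), with adjusted p of 0.509, 0.790, 0.915 and 0.952. The 95% intervals ran from -0.03 to 0.72 for Nsmce2, from -0.16 to 0.48 for Dnajc9, from -0.39 to 0.69 for Mcm2 and from -0.41 to 0.62 for Cdkn2d. Fitted on the TCRM arrays alone, the SE was 0.13 for Cdkn2d, 0.12 for Dnajc9, 0.17 for Nsmce2 and 0.27 for Mcm2. The intervals then ran from -0.18 to 0.39 for Cdkn2d and from -0.10 to 0.42 for Dnajc9. For Nsmce2 they ran from -0.04 to 0.73 and for Mcm2 from -0.46 to 0.76. A doubling lies outside each of these intervals, and 0 lies inside each of them.

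Dnajc9 was the 1 gene of the 4 whose TCRM groups did not overlap, which 5.64% of tested probe sets showed in the same direction. An exact 2-sided permutation test over the 8 TCRM arrays gave p = 0.0357 for Dnajc9, the smallest that 56 regroupings allow, and 0.143 for Nsmce2, 0.429 for Cdkn2d and 0.643 for Mcm2. The Dnajc9 separation did not hold after quantile normalization within populations (exact p = 0.429, lowest infarction value 8.21 and highest sham value 8.31). All 4 genes had their lowest TCRM signal on sham array 3, which also had the narrowest signal range of the TCRM arrays, an interquartile range of 2.51 against 2.63 to 2.79. The share of all probe sets that were lowest on sham array 3 was not computed, so nothing is read from that count. Without that array the Mcm2 difference turned to -0.081, and those of Nsmce2 (0.14), Dnajc9 (0.12) and Cdkn2d (0.018) were also smaller. TCRM infarction array 1 was the highest for Mcm2, Dnajc9 and Nsmce2, and without it the differences were 0.00066 for Mcm2, 0.088 for Dnajc9, 0.28 for Nsmce2 and 0.071 for Cdkn2d. By medians in place of means the Nsmce2 difference was 0.078 and the Dnajc9 difference 0.064.

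The 2-fold threshold that brought these genes into the deposited ENDO table rests on the authors' way of averaging. In the authors' deposited table the averages after infarction and after sham operation are 8.02 and 6.42 for Cdkn2d (3.02-fold, p = 0.004556), 8.76 and 7.69 for Nsmce2 (2.1-fold, p = 0.002729), 7.36 and 6.3 for Mcm2 (2.09-fold, p = 0.011782) and 8.56 and 7.54 for Dnajc9 (2.03-fold, p = 0.001812). The false discovery rates in the authors' deposited table lie between 0.510994 and 0.597790. A Tukey bi-weight average, which gives little weight to values far from the median, gave these averages from the 5 infarction and 3 sham arrays. With plain means the folds were 2.81 for Cdkn2d, 1.89 for Dnajc9, 1.76 for Nsmce2 and 1.71 for Mcm2, so 3 of the 4 lay under 2. The plain means put 7 of the 38 higher probe sets of that list under 2-fold. For Mcm2 the bi-weight average moved towards the 4 infarction arrays above array 5 and the 2 sham arrays below array 2, and for Nsmce2 likewise on the sham side. Dnajc9, Mcm2 and Nsmce2 stand just inside the threshold. By fold alone, 111 of all 41345 probe sets had a bi-weight fold from 1.9 to just under 2, and 150 from 2 to under 2.2. The authors' p threshold was not applied to these counts, and with it their list holds 38 higher probe sets.

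**Figure D3:**
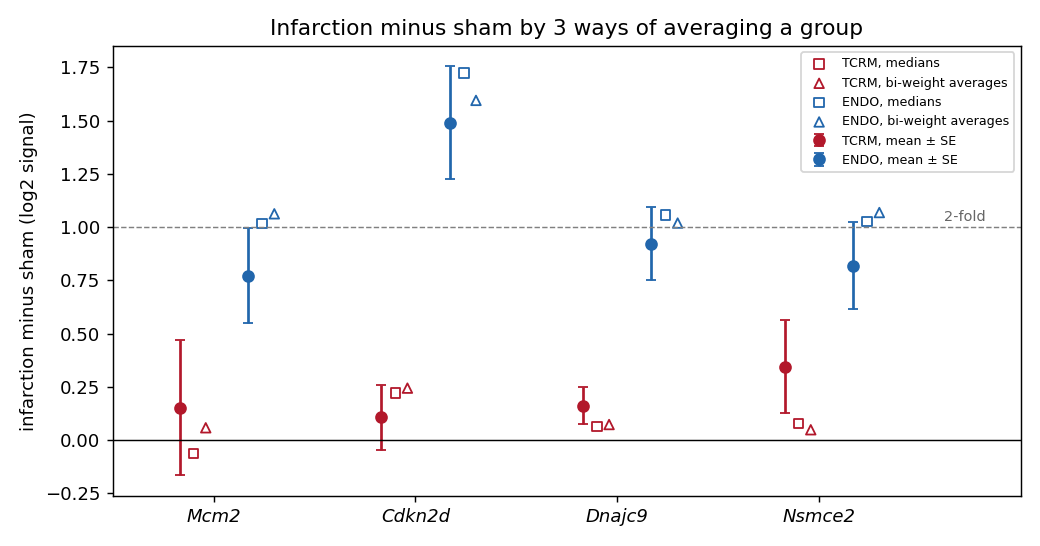
Infarction minus sham difference in log2 signal (vertical axis) of each gene in TCRM (red) and ENDO (blue) cells, as a difference of means ± SE from the group SDs (dots), of medians (squares) and of bi-weight averages (triangles), with 2-fold as a dashed line. In ENDO cells Mcm2, Dnajc9 and Nsmce2 lie under the line by means (0.77, 0.92 and 0.82) and above it by bi-weight averages (1.06, 1.02 and 1.07).

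Beside all probe sets, the ENDO differences were farther out in the upper tail than the TCRM differences. The Cdkn2d difference exceeded that of 99.8% of tested probe sets in ENDO cells, Dnajc9 98.7%, Nsmce2 98.2% and Mcm2 97.8%, positions that the selection fixed in large part. In TCRM cells the same shares were 67.4% for Cdkn2d, 74.1% for Dnajc9, 88.0% for Nsmce2 and 73.2% for Mcm2. The median difference of the 4 genes was 0.87 in ENDO and 0.16 in TCRM cells, against 0.005 in ENDO and -0.001 in TCRM cells over all tested probe sets. In TCRM cells 4 of 4 were higher after infarction by their means, as were 49.7% of all tested probe sets. Subtracting the ENDO from the TCRM difference gave -1.38 ± 0.31 for Cdkn2d, -0.76 ± 0.19 for Dnajc9, -0.62 ± 0.39 for Mcm2 and -0.47 ± 0.30 for Nsmce2 (SE from the group SDs). These are given without a test, because they contain the contrast that chose the genes.

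**Figure D4:**
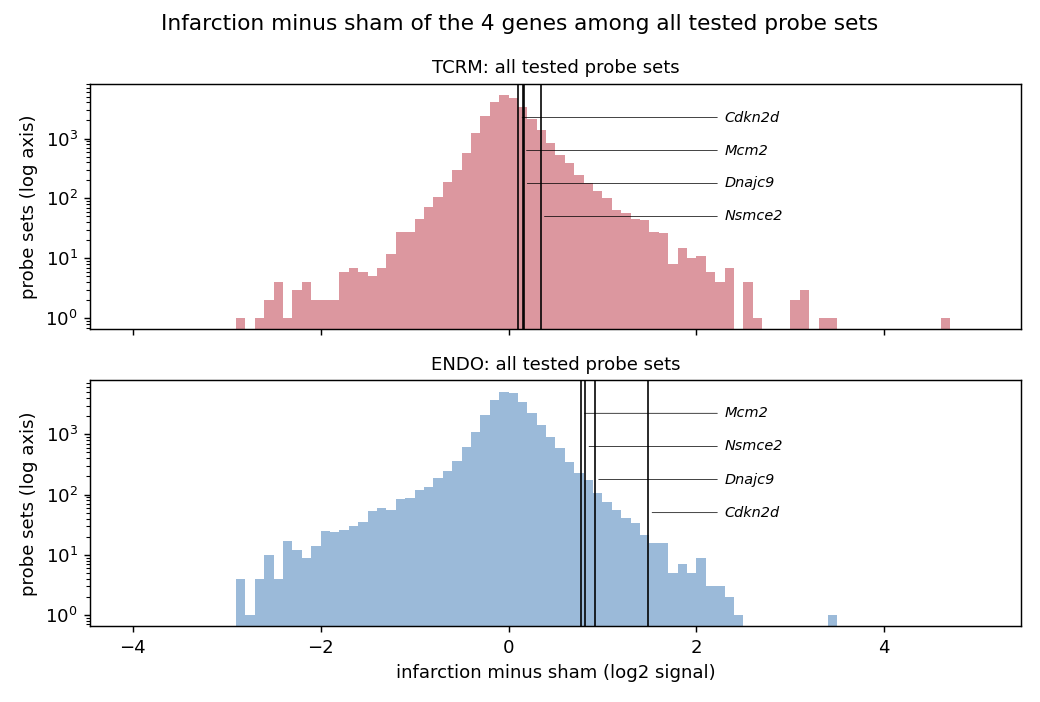
Number of tested probe sets (log axis) by infarction minus sham difference in log2 signal, for TCRM cells (upper panel) and ENDO cells (lower panel), with black lines at the 4 genes. In TCRM cells the lines stand between 0.11 and 0.34, where Nsmce2, the farthest out, exceeds 88.0% of probe sets, and in ENDO cells between 0.77 and 1.49, in the right tail.

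The signal of the 4 genes was also set beside the width of each array's signal distribution. The interquartile range of log2 signal was 2.46, 2.35, 2.35, 2.21 and 2.05 on ENDO infarction arrays 1 to 5, against 2.23, 2.31 and 2.08 on ENDO sham arrays 1 to 3. Cdkn2d was highest on infarction array 1 and then lower on arrays 2 and 3, on array 4 and on array 5. Pearson's r of the deviations from group means with this width over 8 ENDO arrays was 0.93 for Cdkn2d, 0.79 for Mcm2, 0.73 for Dnajc9 and 0.37 for Nsmce2. Over the 8 TCRM arrays it was 0.82 for Nsmce2, 0.41 for Mcm2, 0.39 for Cdkn2d and 0.25 for Dnajc9. These values describe few arrays, and the same r was not computed over all probe sets, so they do not set these genes apart. The part of signal width in the differences was not tested apart from the rescaling. Quantile normalization within populations gives all arrays of a population the same width. After it the SD of Cdkn2d over the ENDO infarction arrays was 0.42 in place of 0.56, that of Dnajc9 0.11 in place of 0.24, that of Mcm2 0.21 in place of 0.28 and that of Nsmce2 0.18 in place of 0.15. The ENDO differences stayed close to those of the deposited values, at 1.46 for Cdkn2d, 0.87 for Dnajc9, 0.77 for Nsmce2 and 0.76 for Mcm2. The TCRM differences were smaller after it, at 0.28 for Nsmce2, 0.090 for Dnajc9, 0.081 for Mcm2 and 0.023 for Cdkn2d. Mcm2 no longer overlapped between ENDO groups in these rescaled values, with 6.87 as the lowest infarction and 6.83 as the highest sham value. The share of all probe sets without overlap after this rescaling was not computed, and the gene was selected on this contrast. Nothing is read from that separation.

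**Figure D5:**
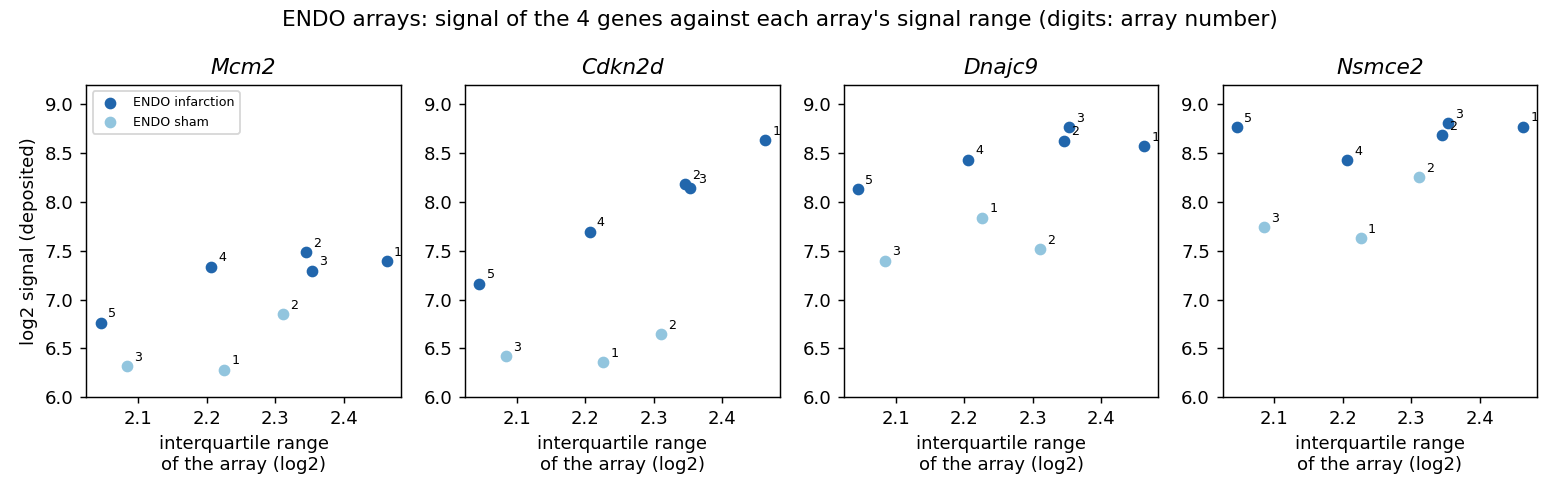
Deposited log2 signal of each gene (vertical axis) against the interquartile range of log2 signal of each ENDO array (horizontal axis), with infarction arrays in dark blue, sham arrays in light blue and the array number beside each point. Cdkn2d runs from 7.16 on infarction array 5, with the narrowest range (2.05), to 8.63 on infarction array 1, with the widest (2.46).

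Deviations from the group means show how far the genes moved together apart from the operation. In ENDO cells Pearson's r of these deviations over 8 arrays was 0.75 between Mcm2 and Cdkn2d and 0.62 between Cdkn2d and Dnajc9. Mcm2 had r = 0.43 with Dnajc9 and 0.41 with Nsmce2, while Nsmce2 had 0.29 with Cdkn2d and -0.12 with Dnajc9. In TCRM cells r was 0.75 for Mcm2 with both Dnajc9 and Nsmce2, 0.68 for Dnajc9 with Nsmce2, 0.62 and 0.60 for Cdkn2d with Nsmce2 and Dnajc9, and 0.30 for Mcm2 with Cdkn2d. Points of a correlation share arrays and their signal width, 8 arrays are few, and the values are a description.

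Among 147 other named genes, those with the most similar deviations over all 16 arrays came 11 times of 12 from the authors' TCRM table, which also gave 131 of the 147 candidates. For Mcm2 they were Csf1 (r = 0.83), Tnfsf8 (0.83) and Rilpl2 (0.80), with r of 0.66 or more in each population alone. For Nsmce2 they were Rilpl2 (0.78), Gpm6b (0.77) and Timp2 (0.70), where Gpm6b had 0.97 in TCRM and 0.40 in ENDO cells. For Cdkn2d they were Cited2 (0.81), S100a6 (0.80) and Dap (0.78). These 3 had r of 0.93 or more in ENDO cells and between -0.24 and 0.10 in TCRM cells, so the likeness to Cdkn2d was one of the ENDO arrays. They were picked as the highest of 147, and on those arrays Cdkn2d also had r = 0.93 with the array's signal width. The part of that width in the likeness was not tested. For Dnajc9 they were Maf (0.75), Vps50 (0.75, from the ENDO table) and S100a6 (0.68). Vps50 and S100a6 had r of 0.91 and 0.81 in ENDO cells and of 0.027 and 0.27 in TCRM cells.

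Little of the rest of the replication and cell cycle machinery can be named on these arrays, since symbols came only from the authors' tables of probe sets past their thresholds. Of 163 genes on 8 lists of replication, cell cycle, histone chaperone, SMC5/6 and mitosis genes 5 were named, the 4 described here and Cks2, which binds cyclin-dependent kinases and is held by 2 probe sets with identical values, so its identity is uncertain. Cks2 was also listed by the authors for ENDO cells, but in the other direction, with a fold of -4.48 and p = 0.001034 in the authors' deposited table. Its log2 signal was 4.55 to 5.92 (median 5.44) on ENDO infarction arrays and 7.20 to 8.22 (median 7.45) on ENDO sham arrays, so these groups did not overlap either. Like the 4 members it was selected on this contrast, and no test is given. So the licensing list holds Mcm2 alone of 23 genes, the kinase inhibitor list Cdkn2d alone of 8, the histone chaperone list Dnajc9 alone of 19 and the SMC5/6 and SUMO list Nsmce2 alone of 25. The lists of the replication fork (26 genes) and of mitosis and proliferation (28 genes) had 0 named members, so whether other genes of division moved with these 4 was not analysed here. Of the genes listed as markers of other cells, 2 of 10 for B and plasma cells (Cd22 and Prdm1) and 1 of 8 for CD8 and NK cells (Nkg7) were named, and 0 of 9 myeloid markers. The CD4+ T cells may carry these transcripts themselves, and bulk RNA does not show which cells did. The sum of Cd22 and Prdm1 had a log2 signal of 7.07 to 7.28 on ENDO infarction arrays and 6.80 to 7.00 on ENDO sham arrays. Nkg7 had 7.50 to 8.32 after infarction and 7.14 to 7.33 after sham operation on ENDO arrays. On TCRM arrays the sum of Cd22 and Prdm1 had 7.64 to 8.08 after infarction and 6.51 to 7.17 after sham operation. Nkg7 had 8.54 to 9.42 and 7.36 to 8.42 on these arrays. The part of other cells in the differences of the 4 genes was not tested in either population. Trat1, the 1 named gene of 12 T cell markers, had 8.21 to 9.47 on ENDO infarction and 9.18 to 9.56 on ENDO sham arrays. On TCRM arrays it had 7.29 to 8.28 after infarction and 8.48 to 8.999 after sham operation. Trat1, Cd22, Prdm1 and Nkg7 were all listed in the authors' TCRM table, so that selection fixed their TCRM differences in large part. Nothing is read from the size of these differences beside those in ENDO cells.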

How the data were processed

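Log2 signal of Affymetrix whole transcript arrays was measured in 16 samples, and the authors deposited it as 1 table of 41345 probe sets. Per the submitters' processing notes the tools were Affymetrix Expression Console and Affymetrix Transcriptome Analysis Console. Their versions, the summarisation and the build are not given in these sources. The authors' 2 further tables hold averages, folds and p-values per the file headers, with decimal commas that were read as points, and they alone gave gene symbols.

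A filter kept the 28941 probe sets whose mean signal exceeded log2 4.72, the 30th percentile. limma 3.58.1 in R 4.3.3 fitted 1 mean per group to all 16 arrays (lmFit, eBayes), with Benjamini-Hochberg adjustment over all tested probe sets, and was tested on simulated data. Residual SDs had a median of 0.197 over TCRM and 0.272 over ENDO arrays. Exact permutation tests used scipy 1.17.1, and figures matplotlib 3.10.9 in python 3.11.15. Per the design text the arrays of a group stand for separate animals (5 infarcted, 3 sham), and their number limits the precision. Genes named are the 4 members, for each the 3 probe sets with 1 symbol and the highest Pearson's r of deviations from group means over 16 arrays, and list genes that the tables name. The members and lists were chosen with earlier results of these data known. That a shared array number marks 1 animal is not stated, and deviations of same-numbered TCRM and ENDO arrays correlated between -0.089 and 0.077 over 8 pairs.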

Additional observations from a re-analysis of the deposited data

Results flagged for a closer look

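In the groups of 5 infarction arrays, 2 of 8 sets of values had 1 array far from the other 4. This was judged by its gap to the nearest of them over the whole range (critical value 0.71), where chance gives about 1 in 20 for a single set. The 8 sets are 4 genes on the same 2 groups of arrays, so they are not independent. The share of all probe sets with such a gap was not computed, so nothing is read from that count. For Dnajc9 on TCRM infarction array 1 the ratio was 0.929, with 8.64 against 8.27 to 8.29 on the others. For Mcm2 on ENDO infarction array 5 it was 0.741, with 6.76 against 7.30 to 7.48 on the others. That array is also the one whose source name says sham and whose mean correlation with the other ENDO arrays was the lowest.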

How the results depend on the processing

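In TCRM cells 0 of the 4 genes passed under any of the settings run with a test, and the lowest adjusted p was 0.291 (Nsmce2, a weight per population). Leaving out 1 array gave TCRM differences from -0.081 to 0.36 for Mcm2 (below 0 without sham array 3), 0.018 to 0.25 for Cdkn2d, 0.09 to 0.19 for Dnajc9 and 0.14 to 0.45 for Nsmce2, and medians turned Mcm2 to -0.062. The 219 TCRM calls became 118 with the TCRM arrays alone, 531 with a weight per population, 377 with a weight per array, 131 after quantile normalization of 16 arrays, 0 (limma, 2051 at unadjusted p under 0.05) with the source name labels and 2 with the replicate block of TCRM arrays, and ran from 113 (without TCRM sham array 2) to 328 (without ENDO infarction array 5) with 1 array left out, with 124 without TCRM infarction array 2 and 127 without TCRM infarction array 1 or TCRM sham array 3. ENDO differences with 1 ENDO array left out were 0.67 to 0.95 for Mcm2, 1.32 to 1.69 for Cdkn2d, 0.83 to 1.05 for Dnajc9 and 0.70 to 1.01 for Nsmce2. Nsmce2 moved by more than its SD pooled within the ENDO groups (0.23), to 0.58 with the source name labels and to 1.07 with bi-weight averages. The difference of responses moved to -1.08 for Mcm2 and -0.95 for Nsmce2 with medians and to -0.24 for Nsmce2 with the source name labels, and with 1 array left out it was -0.85 to -0.41 for Mcm2, -1.58 to -1.22 for Cdkn2d, -0.89 to -0.67 for Dnajc9 and -0.68 to -0.35 for Nsmce2. With the replicate block, the ENDO difference was 0.91 for Mcm2, 1.85 for Cdkn2d, 1.07 for Dnajc9 and 0.88 for Nsmce2. This block matches infarction and sham arrays by number, although infarcted and sham animals are separate. Infarction arrays 4 and 5 have no sham array of their number, so they add nothing to these differences. The same holds for the TCRM calls with this block. The share of windows with an E2F match was 3.89% with the motif shortened to 7 bases, 2.26% with 4 spellings, 0.539% in the first 200 bases and 0.280% in the last 100. The cause of these moves was not tested. Quantile normalization within populations, bi-weight averages, the omission of ENDO infarction array 5 with sham array 3 and the 4 spellings were chosen after seeing the data. Without those 2 ENDO arrays the ENDO differences were 0.81 for Mcm2, 1.66 for Cdkn2d, 0.92 for Dnajc9 and 0.73 for Nsmce2. As signal over background is not known, small differences at low signal are uncertain.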
